A study of Mus musculus with 15 samples.

Results

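The T cell receptor beta locus of the mouse lies on chromosome 6 and holds variable (V), diversity (D), joining (J) and constant (C) segments. Its segments were taken from the deposited count table as every gene whose ID maps to a symbol beginning with Trbv, Trbd, Trbj or Trbc. This gave 53 of the 39827 genes read, namely 35 V segments, 2 D segments, 14 J segments and 2 C genes. RefSeq marks 13 of the V segments and 1 J segment, Trbj2-6, as pseudogenes. On GRCm38 the segments span from the start of Trbv1 at 40891296 to the end of Trbv31 at 41558371.

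RNA came from mouse spleens labelled as holding leukemic T cells, in 15 libraries with 3 in each of 5 groups. In all groups, bone marrow progenitors (GFP+, lineage-negative, cKit+ and Sca1+) were transduced with deltaE-NOTCH1, a truncated receptor that signals without ligand, and given to lethally irradiated C57BL/6J hosts. The wild-type groups were leukemia WT0 from mice injected with PBS, leukemia WT0 from mice injected with ERG-245, and leukemia WT6. ERG-245, an inhibitor of the branched-chain aminotransferase BCAT1, was given i.p. as 3 doses of 30 mg/kg, 8 h apart. The other groups were Bcat1 knock-out leukemias KO7 and KO3. PBS is the labelled treatment of all groups without ERG-245, while the alignment names of the WT0 vehicle libraries contain DMSO. No sort of the spleen cells is named, so cells of the host can be in the RNA, and each number in the labels is read here as 1 leukemia. The labels do not say whether the 3 libraries of a group are separate mice, so the p-values below measure only the spread between these libraries. Each comparison between groups is a comparison of single leukemias, and genotype and leukemia cannot be told apart in it.

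A developing T cell cuts and joins 1 D segment to 1 J segment and then 1 V segment to the joined pair, using the RAG1 and RAG2 recombinase. Transcription from the promoter of the joined V segment runs through the J segment and is spliced to a constant gene further on. Segments of the J1 cluster lie before Trbc1, and those of the J2 cluster lie between Trbc1 and Trbc2. A clone of T cells therefore carries 1 joined V segment on each rearranged chromosome, and mixed T cells carry many. The joined chain pairs first with the pre-T alpha chain and later with the alpha chain, together with the CD3 chains that pass the signal on.

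The germline ends of the 8 V segments that held at least 10% of the V counts in a group are printed first, since the junction is formed there and since counts can be told apart only where these sequences differ. The last 60 bases are given 5′ to 3′ on the plus strand, from GENCODE M21 transcripts on GRCm38, and the last cysteine codon, where the third hypervariable loop begins, stands in capitals.
Trbv2: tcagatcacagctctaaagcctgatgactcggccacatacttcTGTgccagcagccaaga
Trbv3: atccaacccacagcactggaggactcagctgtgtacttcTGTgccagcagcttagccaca
Trbv5: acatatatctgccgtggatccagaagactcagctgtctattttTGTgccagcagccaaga
Trbv13-2: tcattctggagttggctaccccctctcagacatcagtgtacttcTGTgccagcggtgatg
Trbv15: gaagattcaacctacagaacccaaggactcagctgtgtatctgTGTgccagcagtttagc
Trbv16: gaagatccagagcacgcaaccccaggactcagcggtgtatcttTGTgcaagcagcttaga
Trbv17: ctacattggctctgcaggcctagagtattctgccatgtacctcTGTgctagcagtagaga
Trbv19: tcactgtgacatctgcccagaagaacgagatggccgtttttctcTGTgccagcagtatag
These ends lie, in that order, at chr6:41047936-41047995, chr6:41048769-41048828, chr6:41062744-41062803, chr6:41121773-41121832, chr6:41141599-41141658, chr6:41152171-41152230, chr6:41163497-41163556 and chr6:41178989-41179048. All fall in the last exon of their segment, and GENCODE ends Trbv3 a few bases later than RefSeq. Over their last 290 bases the 28 pairs among these 8 segments were 48.8 to 73.2% identical, and the longest stretch shared by any pair was 21 bases. Copies within a family were closer, with 91.7% identity between Trbv13-2 and Trbv13-3 and 89.0% between Trbv12-1 and Trbv12-2, and the counts of these families are less certain. The cysteine codon followed by GC, searched as TGTGC or TGCGC on the plus strand only, was found in the last 60 bases of 26 of all 35 V segments (74.3%).

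The J segments that held at least 10% of the J counts in a group are short enough to be printed whole. The joint to the D segment is made at their first bases. Capitals mark the codons of phenylalanine-glycine-X-glycine, the motif usual in J segments after the hypervariable loop.
Trbj1-6: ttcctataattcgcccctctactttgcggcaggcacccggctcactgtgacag
Trbj2-1: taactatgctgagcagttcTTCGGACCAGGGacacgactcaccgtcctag
Trbj2-3: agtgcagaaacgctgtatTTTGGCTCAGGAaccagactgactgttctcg
Trbj2-5: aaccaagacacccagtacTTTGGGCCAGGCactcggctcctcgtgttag
Trbj2-6: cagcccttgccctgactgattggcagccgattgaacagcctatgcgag
Trbj2-7: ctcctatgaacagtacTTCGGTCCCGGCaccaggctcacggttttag
They lie at chr6:41535554-41535606, chr6:41542754-41542803, chr6:41543223-41543271, chr6:41543453-41543501, chr6:41543598-41543645 and chr6:41543810-41543856. The motif was searched as TTTGGNNNNGG or TTCGGNNNNGG on the plus strand and stood in 11 of all 14 J segments (78.6%). It was not found in Trbj1-6, Trbj1-7 or the pseudogene Trbj2-6.

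Libraries held 17441292 to 28902573 counts on genes, and the locus took 0.174 to 0.462% of them. Of the 53 segments, 30 to 40 had a count in a library. In all, 7 were at 0 in every library: Trbv7, Trbv21, Trbv25, Trbv27, Trbv28, Trbd1 and Trbd2. Trbd1 (12 bases) and Trbd2 (14 bases) are shorter than the overlap of 25 bases that the authors' counting required, so the D segments could not be measured. A filter on low counts left 32 segments for the tests. Bcat1, the targeted gene, stood at 12.5 to 35.6 CPM in the wild-type libraries, 6.17 to 7.85 CPM in KO3 and 1.48 to 2.67 CPM in KO7. The 10 T cell markers summed to 3762 to 6281 CPM over the group means with none at 0.

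Each group had its own order of V segments, and its 3 libraries shared that order closely for every segment above 10%. Levels are CPM, counts scaled to a common library total with TMM factors. Since no sort of the spleen cells is named, fewer cells of a clone and less RNA per cell cannot be told apart in any of these levels. Trbv17 stood at 293, 290.2 and 308 CPM in the 3 WT0 libraries with PBS and 4.61, 5.94 and 3.90 CPM with ERG-245. It stood at 14.0, 13.8 and 13.0 CPM in WT6, and had 2, 1 and 0 counts in KO7 and 1, 2 and 1 counts in KO3. The PBS libraries lay above all others, and both knock-outs were at the edge of detection.

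**Figure D1:**
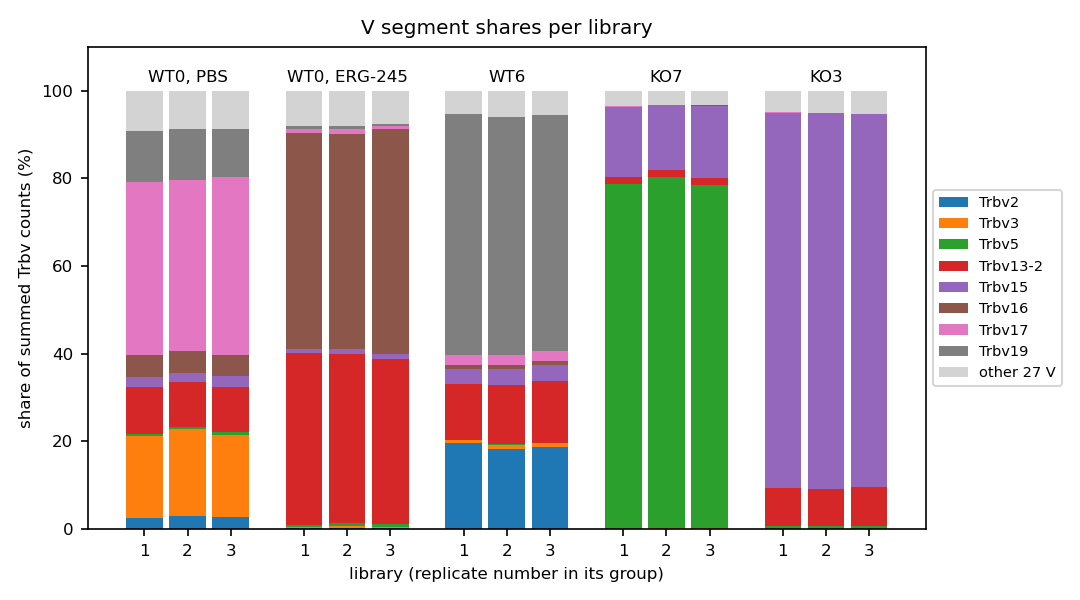
Share of the summed Trbv counts (%, vertical axis) in each of the 15 libraries (bars, numbered by replicate within a group), with 1 colour for each of the 8 V segments that reached 10% in a group and grey for the other 27. The 3 bars of a group are nearly alike, and the largest colour differs between all 5 groups.

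Trbv3 had the same order of groups among the wild-type leukemias, at a lower level. It stood at 138, 148 and 143 CPM with PBS, 1.85, 2.81 and 1.37 CPM with ERG-245 and 4.26, 5.43 and 4.79 CPM in WT6. KO7 had 0.251, 0.341 and 0.341 CPM and KO3 0.850, 0.420 and 0.738 CPM. Only the PBS libraries exceeded 10 CPM, and there Trbv3 held 19.1 ± 0.672% of the V counts (SD, n = 3).

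Trbv16 was the leading V segment with ERG-245. Its libraries stood at 255, 257 and 263 CPM with ERG-245, 37.2, 37.2 and 36.1 CPM with PBS and 6.15, 5.63 and 5.67 CPM in WT6. In KO7 it had 1, 11 and 28 counts and in KO3 3, 9 and 5 counts. The 3 wild-type groups did not overlap, whereas KO7 and KO3 did.

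Trbv13-2 led in no group but exceeded 10% of the V counts in all 3 wild-type groups. It stood at 202, 203 and 194 CPM with ERG-245, 124, 120.3 and 124 CPM in KO3 and 78.1, 82.3 and 82.1 CPM in WT6. With PBS it stood at 78.1, 75.9 and 78.1 CPM and in KO7 at 9.80, 10.6 and 9.26 CPM. It held 38.5 ± 0.689% of the V counts with ERG-245, 13.4 ± 0.662% in WT6, 10.3 ± 0.181% with PBS, 8.72 ± 0.179% in KO3 and 1.59 ± 0.0651% in KO7. No ranges overlapped, and those of WT6 and PBS lay next to each other.

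Trbv19 and Trbv2 were highest in WT6. Trbv19 stood at 338, 331 and 316 CPM in WT6, 86.5, 87.4 and 84.3 CPM with PBS and 3.23, 2.87 and 1.82 CPM with ERG-245. It had 2, 4 and 4 counts in KO7 and 2, 3 and 3 counts in KO3, a range of 2 to 4 counts over all 6 knock-out libraries. Trbv2 stood at 120.4, 112 and 109.6 CPM in WT6, 19.4, 21.8 and 20.3 CPM with PBS and 0.742, 0.834 and 1.01 CPM with ERG-245. Its counts in KO7 were 2, 12 and 9 and in KO3 8, 11 and 18, so the KO3 range overlapped with those of KO7 and of WT0 with ERG-245.

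Among the knock-out leukemias, Trbv5 led in KO7 and Trbv15 in KO3. Trbv5 stood at 479, 518 and 479 CPM in KO7 and 7.18, 7.89 and 8.35 CPM in KO3. In the wild-type leukemias it stood at 4.04, 4.36 and 4.90 CPM with PBS, 2.75, 3.07 and 3.24 CPM with ERG-245 and 0.699, 0.865 and 0.886 CPM in WT6. KO7 was far above every other library. Trbv15 stood at 1209, 1212 and 1189 CPM in KO3 and 97.1, 95.8 and 99.6 CPM in KO7. Its wild-type levels were 20.8, 22.6 and 21.3 CPM in WT6, 17.5, 15.6 and 18.5 CPM with PBS and 4.56, 5.79 and 5.93 CPM with ERG-245. Both knock-outs lay above all 9 wild-type libraries for Trbv15, which held 15.7 ± 0.793% of the V counts in KO7 as its next segment after Trbv5.

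The 27 V segments that never reached 10% were led by Trbv4 with PBS (5.63 ± 0.103% of the V counts) and in KO7 (2.33 ± 0.0872%). Trbv12-2 led them with ERG-245 (6.52 ± 0.265%) and in WT6 (2.80 ± 0.163%), and Trbv12-1 in KO3 (1.92 ± 0.125%). The segment just inside the limit of 10% was Trbv2 (18.9% in WT6) and the one just outside was Trbv12-2. Trbv12-1 lies close to Trbv12-2 and differed from it by group: it had 558, 551 and 622 counts in KO3 and 57, 52 and 48 in KO7, but 0 to 7 in each wild-type library. Trbv29, a pseudogene in RefSeq, had 203, 229 and 190 counts in WT6 and 2 to 13 in every other library. All 13 pseudogenes together held 1.43 ± 0.226% of the V counts in WT6 and from 0.0617 ± 0.0238% in KO7 to 0.335 ± 0.0285% with PBS in the other groups (SD, n = 3).

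**Figure D2:**
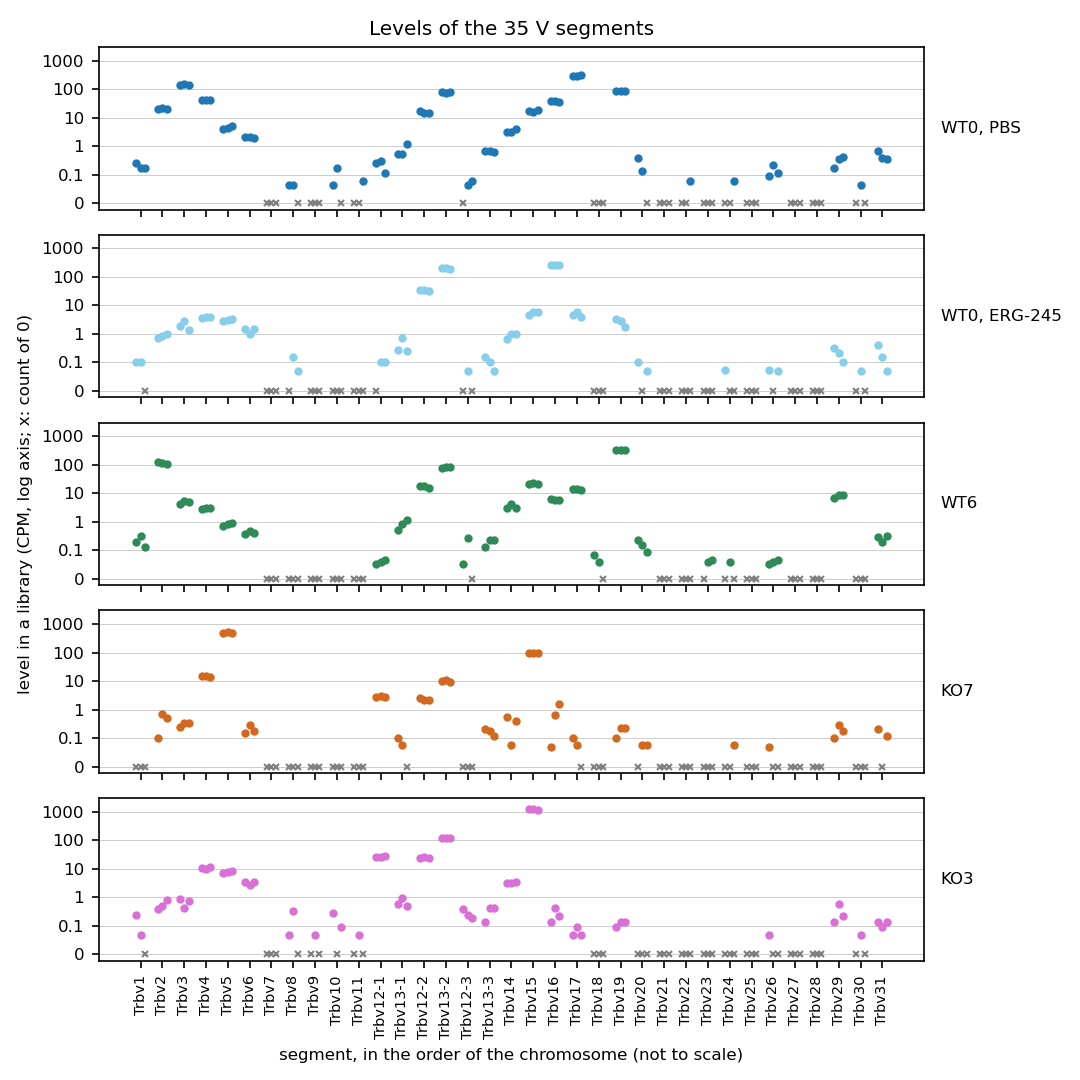
Level of each of the 35 V segments (CPM, log axis) in the order of the chromosome, with 1 panel for each group, 1 point for each library and a grey cross for a count of 0. Trbv5 and Trbv15 stand out in the KO7 panel, Trbv15 in KO3 and Trbv19 in WT6, while the PBS panel has 9 segments above 10 CPM.

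The spread over V segments can be put as an effective number, the inverse of the summed squared shares, which is 1 when a single segment holds all V counts. It was 4.44 ± 0.0847 with PBS, 2.84 ± 0.0466 in WT6, 2.49 ± 0.0432 with ERG-245, 1.54 ± 0.0259 in KO7 and 1.35 ± 0.0100 in KO3 (mean ± SD, n = 3). No library of a group overlapped with one of another group. A share of at least 1% was held by 9 V segments with PBS, 7 in WT6 and 4 in each of the other groups. A count in at least 1 library was found for 27 V segments with PBS, 25 in KO3, 24 with ERG-245 and in WT6, and 20 in KO7. Without the 6 members of the Trbv12 and Trbv13 families, whose copies are alike in sequence, Trbv16 held 91.0% of the V counts with ERG-245. With them it held 49.9 ± 1.19%. The effective number there without them was 1.21. This step left out Trbv13-2, which held 38.5 ± 0.689% with ERG-245 at 3804, 3889 and 3818 counts. Its closest copy Trbv13-3 had 3, 2 and 1 counts there.

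Most V counts outside the leading segment lay before it on the chromosome, with KO7 as the exception. From the start of the locus on, the leading segment was Trbv5 in KO7, Trbv15 in KO3, Trbv16 with ERG-245, Trbv17 with PBS and Trbv19 in WT6. Segments between the leading one and the D segments held 0.0575 ± 0.0311% of the V counts in KO3 (15 segments), 1.38 ± 0.206% in WT6 (11 segments) and 1.50 ± 0.306% with ERG-245 (14 segments). With PBS the share was 11.6 ± 0.350% over 13 segments, and in KO7 it was 18.4 ± 0.824% over 29 segments, mostly Trbv15. Segments before the leading one held 48.5 ± 0.859% with ERG-245, 48.6 ± 0.523% with PBS, 44.2 ± 0.360% in WT6, 14.4 ± 0.355% in KO3 and 2.45 ± 0.0339% in KO7. These shares describe which segments were counted, since reads across a junction were not part of the table.

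J segments are 46 to 53 bases long, and 1624 to 5119 fragments per library were counted on them, against 9738 to 30237 on the V segments. Trbj2-1 was the highest J segment of the series. It stood at 112, 108 and 104 CPM in KO3, 14.7, 13.5 and 17.3 CPM with ERG-245 and 12.3, 13.0 and 12.6 CPM with PBS. In KO7 it stood at 9.95, 9.88 and 11.0 CPM and in WT6 at 1.93, 2.12 and 1.06 CPM. KO3 lay above all other libraries and held 45.9 ± 0.496% of its J counts on this segment (SD, n = 3).

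Trbj2-5 and the 2 segments after it were high together in KO7 and, less so, with PBS and in WT6. Trbj2-5 stood at 32.7, 31.0 and 28.4 CPM in KO7, 17.0, 18.1 and 16.7 CPM in WT6 and 14.4, 15.4 and 12.2 CPM with PBS. It stood at 6.04, 5.42 and 5.03 CPM in KO3 and 1.59, 2.03 and 2.28 CPM with ERG-245. KO7 was highest, and no groups overlapped. Trbj2-6 stood at 28.5, 30.6 and 28.5 CPM in KO7, 15.2, 17.5 and 12.8 CPM with PBS and 10.7, 10.5 and 10.5 CPM in WT6. It stood at 7.60, 5.28 and 6.05 CPM in KO3 and 3.71, 3.65 and 2.79 CPM with ERG-245. Its level in KO7 was near that of its neighbours, although RefSeq marks it as a pseudogene. Trbj2-7 stood at 30.5, 28.2 and 30.7 CPM in KO7, 24.6, 24.7 and 25.4 CPM with PBS and 21.0, 21.9 and 18.8 CPM in WT6. It stood at 14.0, 13.8 and 13.5 CPM in KO3 and 10.2, 10.2 and 9.48 CPM with ERG-245, and was the highest J segment both with PBS and in WT6.

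Trbj1-6 and Trbj2-3 completed the J segments above 10%. Trbj1-6 stood at 18.2, 20.7 and 19.7 CPM with ERG-245, 21.6, 21.8 and 19.2 CPM in KO3 and 7.78, 7.32 and 7.49 CPM in WT6. It stood at 5.68, 7.23 and 7.27 CPM with PBS and 1.86, 1.87 and 2.05 CPM in KO7. The ERG-245 and KO3 ranges overlapped. Trbj1-6 was the highest J segment with ERG-245, where it held 18.6 ± 1.06% of the J counts. Trbj2-3 stood at 20.9, 20.5 and 26.2 CPM in KO3, 14.2, 12.0 and 13.3 CPM with ERG-245 and 8.45, 8.58 and 8.07 CPM in KO7. It stood at 5.02, 5.95 and 5.54 CPM with PBS and had 10, 1 and 3 counts in WT6, with no overlap between groups. Trbj2-3 was the segment just inside the limit (12.6% with ERG-245), and Trbj2-4 was just outside it (9.35% in KO7).

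Along the J clusters the counts changed in steps that differed between the leukemias. In KO7, Trbj1-1, Trbj1-2 and Trbj1-3 were at 0 in all 3 libraries. For counting error alone, 0 counts in the group leave room for 3, or 0.0545 CPM, and Trbj1-4 had 18, 16 and 11 counts. Against the PBS libraries these 3 segments were at least 128-fold, 63.5-fold and 113-fold lower. In KO3 the same 3 segments had 3 to 11 counts per library and Trbj1-4 had 199, 194 and 186. In WT6, Trbj1-1 and Trbj1-2 had 1 to 10 counts per library and Trbj1-3 had 116, 85 and 61. In its second cluster, Trbj2-2, Trbj2-3 and Trbj2-4 had 1 to 10 counts per library and Trbj2-5 had 511, 460 and 376. No J segment of WT0 was near 0, as each had at least 30 counts in every library with either treatment. Neighbours still differed with ERG-245, where Trbj2-1 and Trbj2-3 had 230 to 342 counts per library and Trbj2-2 and Trbj2-4 had 38 to 58. The effective number of J segments was 4.06 ± 0.0456 in KO3, 5.53 ± 0.0372 in KO7 and 6.02 ± 0.135 in WT6. It was higher in WT0, at 9.58 ± 0.0908 with PBS and 9.56 ± 0.158 with ERG-245. The J1 cluster held 53.8 ± 1.94% of the J counts with ERG-245, 34.4 ± 0.863% in WT6, 32.1 ± 1.93% with PBS, 25.1 ± 0.924% in KO3 and 3.91 ± 0.529% in KO7.

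**Figure D3:**
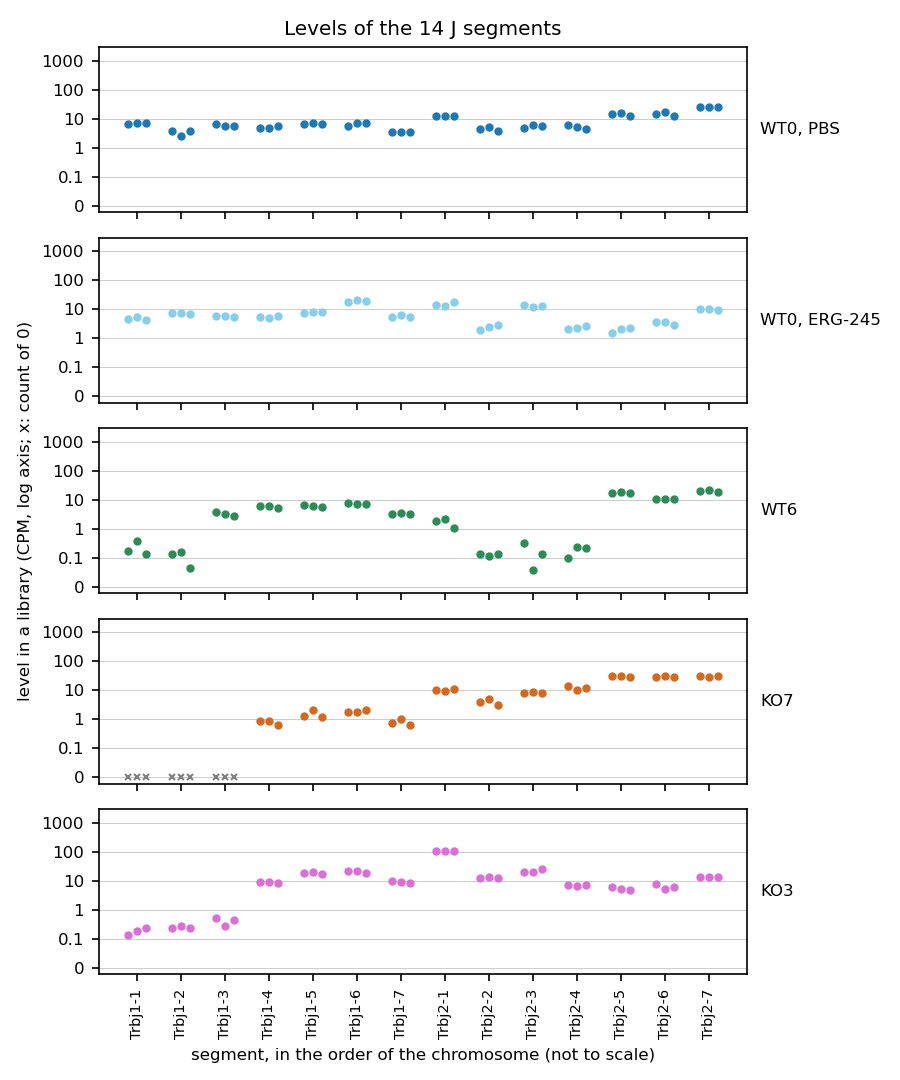
Level of each of the 14 J segments (CPM, log axis) in the order of the chromosome, with 1 panel for each group, 1 point for each library and a grey cross for a count of 0. The first 3 segments of the J1 cluster lie at the bottom of the KO7 and KO3 panels, the first 2 in the WT6 panel, and Trbj2-2 to Trbj2-4 are also low in WT6.

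The constant genes Trbc1 (chr6:41538219-41539665) and Trbc2 (chr6:41546730-41548181) encode nearly the same domain. Their proportion differed between groups, except that the ranges of KO3 and of WT0 with ERG-245 overlapped. Trbc1 stood at 1596, 1611 and 1604 CPM in KO3, 840.1, 836 and 879 CPM with ERG-245 and 304, 296 and 298 CPM in WT6. It stood at 160.4, 166 and 171 CPM with PBS and 139, 137 and 135 CPM in KO7, and no groups overlapped. Trbc2 stood at 1529.9, 1492 and 1510.2 CPM in KO7, 1250.1, 1213 and 1229 CPM in KO3 and 926, 930.4 and 916 CPM with PBS. It stood at 741, 693 and 721 CPM in WT6 and 663, 692 and 683 CPM with ERG-245, whose ranges did not overlap. Trbc1 thus held 56.6 ± 0.488% of the constant counts in KO3, 55.6 ± 0.825% with ERG-245, 29.4 ± 0.468% in WT6, 15.2 ± 0.486% with PBS and 8.32 ± 0.0787% in KO7 (SD, n = 3). Their first exons, of 375 bases each, differed at 1 position, with an identical run of 259 bases, and bases 376 to 520 were 84.8% identical. The authors' counting command names no option for fragments that fit several places, and the split between Trbc1 and Trbc2 is therefore less certain than that between the 8 V segments printed above.

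Summed over segments, the locus was highest in KO3. The V sum was 1411, 1413 and 1396 CPM in KO3, 741, 745 and 759 CPM with PBS and 608, 647 and 610.4 CPM in KO7. It was 615, 609.6 and 585 CPM in WT6 and 516, 523 and 513 CPM with ERG-245, and the KO7 and WT6 ranges overlapped. The J sum was 242, 234 and 229.8 CPM in KO3, 133, 129 and 127 CPM in KO7 and 120.4, 125 and 117 CPM with PBS. It was 103, 105 and 107 CPM with ERG-245 and 79.2, 80.0 and 72.0 CPM in WT6, with no overlap between groups. The C sum was 2846, 2825 and 2833 CPM in KO3, 1669, 1629 and 1646 CPM in KO7 and 1504, 1528 and 1562 CPM with ERG-245. It was 1086, 1096 and 1087 CPM with PBS and 1044, 989 and 1018 CPM in WT6. With ERG-245 the V sum was therefore lower than with PBS (log2 -0.53) while the C sum was higher (log2 0.49). Per 1000 counts of the CD3 genes Cd3d, Cd3e and Cd3g, which encode the signalling chains of the receptor, the V sum was higher with ERG-245 than with PBS (log2 0.32), since the CD3 sum was 931 ± 15.3 CPM with ERG-245 and 1684 ± 16.4 CPM with PBS.

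**Figure D4:**
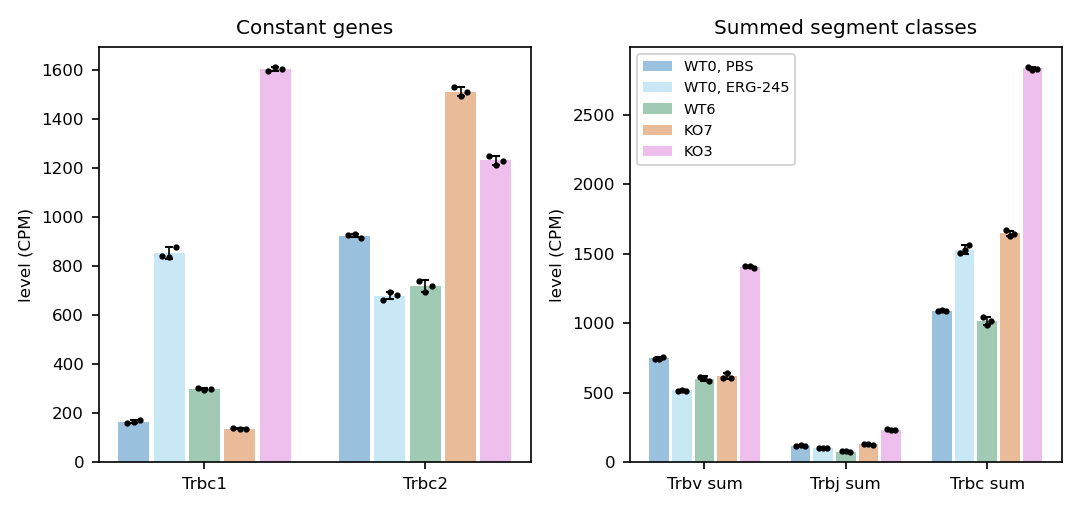
Left, levels of Trbc1 and Trbc2, and right, levels summed over V, J and C segments (CPM) in the 5 groups. Bars are means, error bars SD and points the 3 libraries. KO3 is highest for Trbc1 and all 3 sums, and KO7 for Trbc2.

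On the scale per kb of exon, the V sum and the C sum were about equal with PBS, at a ratio of 1.03 ± 0.0154. The ratio was 0.885 ± 0.0313 in WT6, 0.743 ± 0.00562 in KO3, 0.573 ± 0.0264 in KO7 and 0.508 ± 0.0126 with ERG-245 (SD, n = 3). The groups with the lowest ratios, KO7 and WT0 with ERG-245, had a higher C sum than WT6. Their V sum overlapped with that of WT6 or lay under it. The ratios use full exon lengths, while the counting command names no option for fragments that fit several places or touch several genes. The first exons of Trbc1 and Trbc2 are nearly identical, and the part of such fragments in these ratios was not tested.

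To see what differed under the inhibitor, WT0 with ERG-245 was compared with WT0 with PBS. Trbv16 (log2 2.81), Trbc1 (2.36), Trbj1-6 (1.54), Trbv13-2 (1.37) and Trbj2-3 (1.26) rose, and Trbv3 (-6.15), Trbv17 (-5.95), Trbv19 (-5.03) and Trbv2 (-4.56) fell. Of the 32 segments tested, 9 rose and 18 fell (84.4%), beside 33% and 32.8% of all tested genes and 65.8% in either direction. A segment could pass the filter on low counts through the group where it is high. These counts, and those of the comparisons below, are therefore a description. At least 2-fold changes were found for 7 segments that rose and 13 that fell, beside 5.67% and 6.05% of all genes and 11.7% in either direction. Trbv17 gave log2 -5.95, SE 0.0574, edgeR adjusted p = 1.04e-76, and Trbv16 gave log2 2.81, SE 0.0465, edgeR adjusted p = 5.23e-61. Trbc1 gave log2 2.36, SE 0.0252, edgeR adjusted p = 5.41e-74, and Trbc2 gave log2 -0.44, SE 0.0231, edgeR adjusted p = 1.11e-28. Among the segments under 10%, Trbv12-2 rose most (1.15) and Trbv4 fell most (-3.49). In the J2 cluster Trbj2-5 (-2.84), Trbj2-6 (-2.18) and Trbj2-7 (-1.32) fell, while Trbj2-1 gave 0.27 (edgeR adjusted p = 0.004), which missed the threshold without ERG-245 replicate 3 (log2 0.16, edgeR adjusted p = 0.129). The median size of change was log2 1.29 over the segments and 0.31 over all tested genes. Both groups carry the number 0 in the labels, and whether the spleens held the same T cell clones cannot be told apart from an effect of ERG-245 in these values.

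The wild-type leukemias WT6 and WT0 with PBS were compared to see how far leukemias of 1 genotype differ. Trbv2 (2.48), Trbv19 (1.93) and Trbc1 (0.85) were higher in WT6, and Trbv3 (-4.90), Trbv17 (-4.44), Trbj2-3 (-4.89) and Trbj2-1 (-2.85) were lower. Of 32 segments, 7 were higher and 18 lower (78.1%), beside 36.8% and 35.6% of all genes and 72.5% in either direction. At least 2-fold, 3 were higher and 14 lower (the 3 being Trbv2, Trbv19 and Trbv29), beside 9.15% and 9.74% of all genes and 18.9% in either direction. Trbv29 was the segment under 10% with the largest rise (4.69) and Trbj2-2 the one with the largest fall (-5.07). Trbv13-2 was not called (log2 0.06, SE 0.0347, edgeR adjusted p = 0.0996), but it was called by library totals alone (log2 0.13, edgeR adjusted p = 0.000522) and without WT6 replicate 1 (log2 0.091, edgeR adjusted p = 0.0317).

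In KO7 against WT6, the J and C segments moved by cluster, while some neighbouring V segments went in opposite directions, such as Trbv3 (-3.93) and Trbv5 (9.24) on either side of Trbv4 (2.32). Trbv5 (9.24) and Trbv15 (2.18) were higher in KO7, as were all 7 segments of the J2 cluster and Trbc2 (1.07). All 7 segments of the J1 cluster and Trbc1 (-1.13) were lower, as were Trbv19 (-10.78), Trbv2 (-8.07), Trbv3 (-3.93), Trbv13-2 (-3.03) and Trbv16 (-3.0). Of 32 segments, 12 rose and 18 fell (93.8%), beside 32.2% and 36.7% of all genes and 68.9% in either direction. At least 2-fold, 10 rose and 18 fell, beside 9.29% and 8.17% of all genes and 17.5% in either direction. Trbv5 gave log2 9.24, SE 0.0631, edgeR adjusted p = 9.57e-88, and Trbv19 gave log2 -10.78, SE 0.0902, edgeR adjusted p = 1.55e-81. Trbv17 had 3 counts in KO7 and 1066 in WT6, a ratio of 250.8-fold with an exact 95% counting interval of 85.6 to 1218. Of the segments under 10%, Trbj2-4 rose most (6.04), and Trbj1-3, at 0 in KO7, was at least 60.6-fold lower. The median size of change was log2 3.01 over the segments and 0.33 over all genes.

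In KO3 against WT6, both constant genes were higher. Trbv15 (5.81), Trbv5 (3.27), Trbj2-3 (6.93), Trbj2-1 (5.95), Trbc1 (2.42) and Trbc2 (0.78) were higher in KO3. Trbv19 (-11.30), Trbv17 (-7.65), Trbv2 (-7.61), Trbv16 (-4.43) and Trbj2-5 (-1.65) were lower. Of 32 segments, 17 rose and 10 fell (84.4%), beside 27.7% and 32% of all genes and 59.7% in either direction. At least 2-fold, 13 rose and 8 fell, beside 4.04% and 7.46% of all genes and 11.5% in either direction. Trbv15 gave log2 5.81, SE 0.0331, edgeR adjusted p = 3.44e-93, and Trbc1 gave log2 2.42, SE 0.0233, edgeR adjusted p = 2.2e-77. Of the segments under 10%, Trbv29 fell most (-4.59) and Trbv12-1 rose most (9.25), with 3 counts in WT6 and 1731 in KO3, a ratio of 700.9-fold with an exact 95% counting interval of 239 to 3402. Both knock-outs were compared with the same WT6 libraries, so these values are not independent of those for KO7. The median size of change was log2 2.16 over the segments and 0.24 over all genes.

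The knock-out leukemias also differed from each other. In KO3 against KO7, Trbv13-2 (3.63), Trbv15 (3.63), Trbc1 (3.55), Trbj1-6 (3.43) and Trbj2-1 (3.39) were higher. Trbv5 (-5.97), Trbj2-5 (-2.48), Trbj2-6 (-2.21), Trbj2-7 (-1.12) and Trbc2 (-0.30) were lower. Of 32 segments, 19 were higher and 8 lower (84.4%), beside 36.1% and 34.6% of all genes and 70.7% in either direction. At least 2-fold, 19 were higher and 5 lower (Trbv5, Trbv16, Trbj2-5, Trbj2-6 and Trbj2-7), beside 7.29% and 12.3% of all genes and 19.6% in either direction. Of the segments under 10% with counts in both groups, Trbj2-4 was lower by the most (-0.77) and Trbv6 higher by the most (3.95). Trbj1-3, at 0 in KO7, had the largest fitted value and was at least 7.72-fold higher in KO3, a bound that gives it no rank. Trbv2, Trbv17 and Trbv19 were not called (log2 0.46, 0.18 and -0.52), at 0 to 18 counts per library in both. Trbv3 (log2 1.10, edgeR adjusted p = 0.0151) lost its call without KO7 replicate 1 (edgeR adjusted p = 0.0652) or KO3 replicate 1 (edgeR adjusted p = 0.084). Trbv16 (log2 -1.44, edgeR adjusted p = 0.00458) lost its call without KO7 replicate 3 (log2 -0.27, edgeR adjusted p = 0.686), which held 28 of the 40 KO7 counts.

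**Figure D5:**
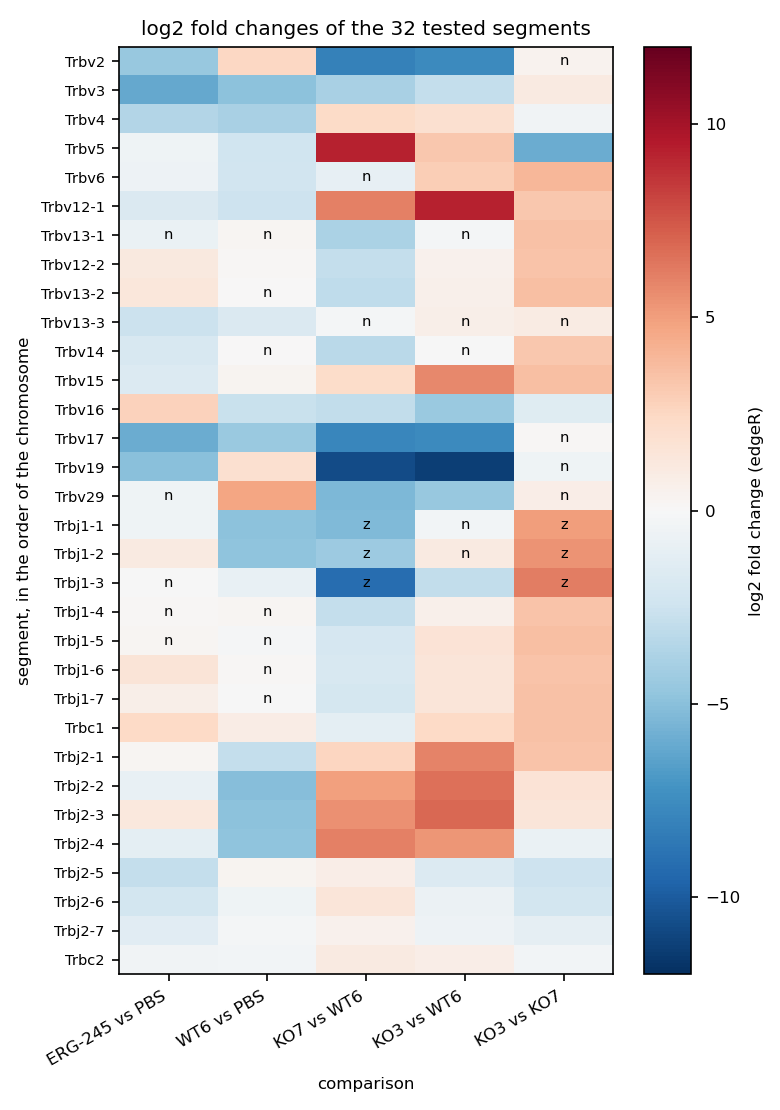
Fitted log2 fold changes (colour) of the 32 tested segments, in the order of the chromosome, in 5 comparisons, each written as the first group against the second. The letter n marks an adjusted p of at least 0.05 and z a group at 0 in all libraries, where the fitted value is no bound. The KO7 column against WT6 changes from blue in the J1 cluster and Trbc1 to red in the J2 cluster and Trbc2.

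Against WT0 with PBS, which is also the control of comparisons above, KO7 had 9 higher and 21 lower segments of 32, beside 34.5% and 34.9% of all genes and 69.4% in either direction. KO3 had 16 higher and 13 lower, beside 34.1% and 32.4% of all genes and 66.6% in either direction. Trbv5 was higher in KO7 (6.80) and in KO3 (0.83), and Trbv15 was higher in KO7 (2.51) and in KO3 (6.13). Trbc1 was lower in KO7 (-0.27) and higher in KO3 (3.28), and Trbc2 was higher in both (0.71 and 0.41). Trbv12-1 was the segment under 10% with the largest rise in KO7 (3.54) and in KO3 (6.78), and Trbj1-1 the one with the largest fall in KO3 (-5.18). In KO7, Trbj1-1, Trbj1-2 and Trbj1-3 were all at 0, and the bounds given above do not rank them.

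With the 3 libraries of a leukemia summed, the knock-outs KO7 and KO3 were set against WT6 and WT0 with PBS, so that each leukemia counted once. Of 35 segments tested in this fit, 0 rose and 0 fell by edgeR's quasi-likelihood test, beside 0% of all 17226 genes. At an unadjusted p under 0.05 there were 11 of the 35 segments, beside 226 of 17226 genes (1.31%). A segment could pass the filter of this fit through the genotype where it is high, so this count is a description. The largest fitted changes were Trbv17 (log2 -11.31, edgeR adjusted p = 1) and Trbv19 (log2 -10.38, edgeR adjusted p = 0.928), and upward Trbv12-1 (6.77), Trbv5 (6.60) and Trbv15 (5.09). DESeq2 called 2 segments higher in the knock-outs, Trbv12-1 and Trbv15, and 5 lower, Trbv2, Trbv3, Trbv16, Trbv17 and Trbv19. Without WT6, edgeR called 3 segments lower, Trbv3, Trbv17 and Trbv19, and without WT0 it called 2 lower, Trbv2 and Trbv19. Either omission leaves a single wild-type leukemia, which is then assumed to vary as the knock-out leukemias do. The fit compares 2 leukemias with 2, at 2 residual degrees of freedom.

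Genes that work with the receptor were followed in fixed lists, chosen with earlier results of these data known. Beyond up to 3 genes by p, those named below complete small counts and were chosen after their values were seen. Of 11 genes of the receptor complex and its coreceptors, 4 rose and 7 fell with ERG-245 against PBS, beside 33% and 32.8% of all tested genes (median log2 -0.263, beside -0.001 over all tested genes). Cd3e (log2 -1.34) and Cd3g (-0.76) fell, and the coreceptor chain Cd8a rose (1.07), as did Cd8b1, Cd4 and Cd247. In KO7 against WT6, 3 rose and 8 fell, beside 32.2% and 36.7% of all genes (median log2 -0.171, beside -0.026 over all genes), the 3 being the coreceptor Cd4 (1.07), the pre-T alpha chain Ptcra (0.57) and Cd8b1. The adhesion receptor Cd2 fell (-0.92). In KO3 against WT6, 4 rose and 7 fell, beside 27.7% and 32% of all genes (median log2 -0.164, beside -0.019 over all genes), and Cd8a (-1.41), Cd8b1 (-1.14) and Cd4 (-0.93) fell with the smallest p. Cd3d, Cd3e, Cd3g and the costimulatory receptor Cd28 rose. The constant gene of the alpha chain, Trac, rose with ERG-245 (0.83) and fell in KO7 (-0.89) and KO3 (-1.32) against WT6. That of the delta chain, Trdc, fell with ERG-245 (-1.40) and rose in KO7 (0.56) and KO3 (0.60).

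Of 15 genes of V(D)J recombination, 3 rose and 8 fell with ERG-245, 5 rose and 8 fell in KO7 against WT6, and 6 rose and 3 fell in KO3 against WT6. Called in either direction were thus 11, 13 and 9 of the 15, beside 65.8%, 68.9% and 59.7% of all tested genes, and the counts for ERG-245 and KO3 lay near that background. The medians over the 15 genes were log2 -0.249, -0.10 and -0.016, beside -0.001, -0.026 and -0.019 over all tested genes. The recombinase genes Rag1 (-0.68) and Rag2 (-1.64) fell with ERG-245, as did the ligase Lig4 (-0.74), and Xrcc5, Nhej1 and Hmgb2 rose. In KO7 the terminal transferase Dntt, which adds untemplated bases at the junctions, rose (0.56), and the kinase Atm (-0.68) and the polymerase Poll (-1.38) fell. Rag2, Xrcc6, Dclre1c and Nhej1 were the others that rose. In KO3, Dntt (1.43), Rag2 (1.84) and Rag1 (0.31) rose, and Prkdc, Dclre1c and Atm fell. Of 14 genes that regulate the locus, 4 rose and 9 fell with ERG-245, 1 rose and 11 fell in KO7, and 6 rose and 5 fell in KO3, with medians of log2 -0.123, -0.326 and 0.009. The 13, 12 and 11 of 14 called in either direction stand beside the same 65.8%, 68.9% and 59.7% of all tested genes. The transcription factors Gata3 (-1.27), Tcf7 (-0.62) and Lef1 (-0.61) fell with ERG-245, and Runx3, Tcf3, Rad21 and Stat5b rose. Tcf7 (-0.53), Bcl11b (-0.55) and Lef1 (-0.45) fell in KO7, and the cohesin subunit Rad21 was the 1 that rose. In KO3, Lef1 (0.68), Runx1 (0.46) and Tcf12 (0.31) rose, and Runx3, Bcl11b, Ctcf, Satb1 and Ikzf1 fell.

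Of 15 genes of receptor signalling, 14 fell and 0 rose with ERG-245, beside 32.8% and 33% of all tested genes, led by the transcription factor Nfatc1 (-0.70) and the kinases Fyn (-0.52) and Zap70 (-0.40). DESeq2 called 12 of them lower. Of the 10 T cell markers, 8 also fell with ERG-245 (median log2 -0.382) and 10 in KO7 (-0.258), and their part in the counts of this list was not tested. In KO7 against WT6, 1 rose and 12 fell, beside 32.2% and 36.7% of all genes, the latter including the phosphatase Ptprc (-0.40) and the kinase Csk (-0.41), and Fyn was the 1 that rose. In KO3 against WT6, 6 rose and 9 fell, beside 27.7% and 32% of all genes, the latter including Ptprc (-0.44) and the protease Malt1 (-0.58). The medians over the 15 genes were log2 -0.293 with ERG-245, -0.182 in KO7 and -0.081 in KO3, and 0 of them changed at least 2-fold in these 3 comparisons. Trypsinogen genes lie inside the locus, and Prss2 (chr6:41521776-41525079), between the V and D segments, was the only 1 of 8 with enough counts to test. Its mean was 123 CPM with PBS, 6.27 CPM in WT6, 2.04 CPM with ERG-245 and 1.50 CPM in KO7, and it had 0 counts in all 3 KO3 libraries, at least 134-fold lower than WT6 with a floor of 0.0467 CPM.

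Markers of other cells differed between the groups as well. The 7 mature or memory T cell markers summed to 728 to 752 CPM in KO3, 497 to 513 CPM with PBS, 471 to 485 CPM in WT6, 440 to 457 CPM with ERG-245 and 382 to 387 CPM in KO7, with none at 0. The 6 erythroid markers summed to 24139 to 25750 CPM in KO7, 21114 to 21335 CPM with ERG-245, 16420 to 17179 CPM with PBS, 4374 to 5075 CPM in WT6 and 4223 to 4544 CPM in KO3, with none at 0. The 6 B cell markers summed to 22.3 to 112 CPM and the 4 NK cell markers to 1.95 to 10.9 CPM over all libraries, and of these Ncr1 was at 0 with PBS. The 6 neutrophil markers summed to 2.89 to 4.22 CPM with ERG-245 and 64.3 to 66.0 CPM with PBS. Over all libraries, the 6 macrophage markers summed to 786 to 2725 CPM, the 4 plasma cell markers to 209 to 1529 CPM, the 4 platelet markers to 19.9 to 131 CPM, the 4 stroma markers to 144 to 213 CPM and the 6 immature T cell markers to 1319 to 2833 CPM. The part of these cells in the levels of the receptor segments was not tested.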

How the data were processed

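The authors deposited raw fragment counts per gene for 15 libraries, 3 in each of 5 groups. Per the file headers, they used featureCounts 2.0.1 over RefSeq exons of GRCm38.p6, with paired fragments, strand setting 2 and a minimum overlap of 25 bases. The command names no option for multi-mapped fragments or for fragments that touch several genes. Per the submitters' processing notes, Trim Galore, STAR, Subread and DESeq2 were used, without settings. The deposited table also gives gene lengths in bases (its other unit), used here for values per kb. Of the lines, 9 were broken and 3 genes were left out for this. A symbol was found for 39743 IDs, and 52 of 53 segments start where the reference does.

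Tests used edgeR 4.0.16 under R 4.3.3 (filterByExpr by group, TMM scaling, glmQLFit and glmQLFTest on all 15 libraries, 15948 genes, 10 residual degrees of freedom). A gene was called at an adjusted p under 0.05 (Benjamini-Hochberg, over all tested genes). A second fit on counts summed by leukemia tested 17226 genes. DESeq2 1.42.0, other scaling, no filter, the compared groups alone, a replicate block and leaving out libraries were alternatives. Library pairs of a group differed by more than sampling noise (chi-square per degree of freedom at least 1.58). The spread beyond that noise was small, with a coefficient of variation of 2.18% from edgeR's common dispersion. Whether it holds any spread between mice is not known. In a test on simulated data, 100% of 200 changed genes were recovered among 15277 in a comparison of 3 libraries with 3. The changes were log2 1 or 2 in size and set only in genes above a count limit, so segments near 0 counts were not covered. The simulated spread was set by hand, alike for all genes, and the fit held only the 6 simulated libraries. Full recovery was easy to reach under these settings and does not measure recovery in the fit of 15 libraries.

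V segments with at least 10% of the V counts in a group, J segments with at least 10% of the J counts, and the D and C genes are given in every library. Of the others, the 1 with the largest fitted change in each direction is named (no rank is given to segments at 0 in a group), and of each list up to 3 genes by p, except that the values of 1 list gene are not reported here. The segments and lists were chosen with earlier results of these data known.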

Additional observations from a re-analysis of the deposited data

Results flagged for a closer look

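Both knock-out leukemias were compared with WT6, and the difference between these effects is their direct comparison. It passed edgeR's test for 13 of the 16 tested segments given in every library, beside 70.7% of all tested genes. The count is thus not far from that background. The log2 difference, KO3 less KO7, was 1.10 for Trbv3, -5.97 for Trbv5, 3.63 for Trbv13-2, 3.63 for Trbv15 and -1.44 for Trbv16. It was 3.43 for Trbj1-6, 3.39 for Trbj2-1, 1.43 for Trbj2-3, -2.48 for Trbj2-5, -2.21 for Trbj2-6 and -1.12 for Trbj2-7. For the constant genes it was 3.55 (Trbc1) and -0.30 (Trbc2). Against WT6, Trbv13-2, Trbj1-6 and Trbc1 were lower in KO7 and higher in KO3, and Trbj2-5, Trbj2-6 and Trbj2-7 were higher in KO7 and lower in KO3. The calls of Trbv3 and Trbv16 depended on single libraries, as given with their values above.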

How the results depend on the processing

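Other settings gave 1340 values of the named segments in the comparisons between groups, with the fit by leukemia left out. Of these, 1330 kept their direction and their side of the threshold. Trbv17 in KO3 against KO7 changed sign without KO7 replicate 3 (log2 -0.33) and without KO3 replicate 2 (-0.20), and Trbv2 changed sign without KO7 replicate 1 (-0.050, with 0.96 as the highest value over libraries left out), all at low counts. Of the other 7, 4 lost their call and 3 gained one, the latter being Trbv13-2 and Trbj1-6 in WT6 against PBS by library totals alone and Trbv13-2 without WT6 replicate 1. Between leukemias, DESeq2 called 2 segments higher and 5 lower where edgeR called 0, and leaving out 1 leukemia gave 0 to 3 lower calls. Without the Trbv12 and Trbv13 families the leading shares were 45.4% (Trbv17, PBS), 91.0% (Trbv16, ERG-245), 65.1% (Trbv19, WT6), 81.1% (Trbv5, KO7) and 97.8% (Trbv15, KO3). Trbv19 in WT6 held 53.9% per kb and 55.2% without pseudogenes. Per kb, Trbj1-6 with ERG-245 held 17.4% and Trbj2-7 in WT6 27.7% of the J counts. By library totals alone, the log2 differences of the summed V, J and C levels were -0.60, -0.27 and 0.42 for ERG-245 against PBS, and those of V and C -0.022 and 0.63 for KO7 against WT6. Per 1000 Cd3 counts they were 0.32, 0.65 and 1.35 for ERG-245 against PBS, 0.23, 0.94 and 0.88 for KO7 against WT6, and 0.60, 0.99 and 0.85 for KO3 against WT6. The cause of these shifts was not tested. With a replicate block, ERG-245 against PBS gave 9 higher and 18 lower segments, and no count of segments changed by over 1.5 times in the other comparisons. Same-numbered libraries did not deviate together (correlations -0.125 to 0.077 over 30 pairs, 3 of 15 libraries closest to their own number). With 3 libraries that differ little in each group, this check cannot exclude a pairing by number.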
